A study of Mus musculus with 34 samples.

Results

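The proteasome genes described here were taken as all mouse genes whose symbol begins with Psma, Psmb, Psmc or Psmd and a number, without Psmb8, Psmb9 and the pseudogenes. The rule found 38 members among the 37583 genes of the deposited files, and every member had a row in the mRNA and in the nascent RNA data. The libraries came from livers of F1 mice (C57Bl6/CBA) at 45 days of age. In the knockout (KO) group, Setd8lox/lox-Alb-Cre, a floxed exon 7 of Setd8 is removed by Cre recombinase under the albumin promoter. Setd8, now named Kmt5a, encodes the enzyme that places the first methyl group on histone H4 lysine 20. Alb-Cre acts in hepatocytes, and the labels do not say which other cells of the liver keep the gene. The other group was labelled wild type (WT), and the labels do not say whether it carries a floxed allele or Cre. Messenger RNA was sequenced in 3 KO and 3 WT libraries. Nascent RNA was sequenced with 1 KO and 1 WT library for each of 2 methods. In the first, mice received 25 mg per kg of ethynyl uridine (EU) 30 min before they were killed, and the labelled transcripts were captured. In the second, liver nuclei were allowed to extend their transcripts for 3 min in the presence of Br-UTP (Br). The labels do not say whether each replicate is a separate animal, so p-values here refer to library-to-library spread, part of which may be technical.

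The proteasome degrades proteins that carry ubiquitin. Its 20S core is a barrel of alpha and beta rings, with the proteolytic sites on the beta subunits Psmb5, Psmb6 and Psmb7. The 19S cap recognises ubiquitin, unfolds the substrate with a ring of ATPases and feeds it into the core. Mammalian cells raise the subunit genes together when the proteasome is inhibited, mainly through the transcription factor Nfe2l1, which binds antioxidant response elements in their promoters. In immune cells, and in liver cells exposed to interferon, the inducible beta subunits Psmb8, Psmb9 and Psmb10 replace Psmb5, Psmb6 and Psmb7.

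The core of that element, TGACNNNGC on either strand, was searched in the RefSeq promoter windows (GRCm38.p6, from 250 bases before to 50 bases after the start site), which were found for 31 of the 38 members. It was present in 5 of the 31 (16.1%), against 14% of the 27025 genes with a window. These 5 were Psmb5, Psmb6, Psmc6, Psmd9 and Psmd12. A match is a description of the letters and not a site. The windows of Psmb5, Psmb6 and Psmd9 are shown because their matches lie nearest to the start site, with the first base of the match at position -47, -9 and -31 relative to it, and that of Psma5 is shown as a window with no match from a member whose mRNA call depended on the libraries used. Capitals mark the core.
Psmb5 (chr14:54617946-54618245, minus strand): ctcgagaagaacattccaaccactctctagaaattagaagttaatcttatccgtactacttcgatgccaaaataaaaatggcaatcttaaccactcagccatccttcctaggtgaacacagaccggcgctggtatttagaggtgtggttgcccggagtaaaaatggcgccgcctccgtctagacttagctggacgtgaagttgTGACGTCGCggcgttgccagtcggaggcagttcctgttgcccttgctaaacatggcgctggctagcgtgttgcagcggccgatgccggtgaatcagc
Psmb6 (chr11:70525107-70525406, plus strand): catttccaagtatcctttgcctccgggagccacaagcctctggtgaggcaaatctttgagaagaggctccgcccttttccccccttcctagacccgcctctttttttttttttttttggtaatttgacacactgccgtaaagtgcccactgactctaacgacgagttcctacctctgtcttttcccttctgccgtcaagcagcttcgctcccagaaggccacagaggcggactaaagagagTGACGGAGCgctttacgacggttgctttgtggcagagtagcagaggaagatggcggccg
Psmd9 (chr5:123227940-123228239, plus strand): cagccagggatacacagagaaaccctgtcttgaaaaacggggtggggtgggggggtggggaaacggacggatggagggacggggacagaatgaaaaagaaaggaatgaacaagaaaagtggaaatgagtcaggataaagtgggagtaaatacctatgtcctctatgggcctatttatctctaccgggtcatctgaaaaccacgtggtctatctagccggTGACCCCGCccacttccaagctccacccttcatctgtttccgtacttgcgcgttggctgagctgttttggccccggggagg
Psma5 (chr3:108256676-108256975, plus strand): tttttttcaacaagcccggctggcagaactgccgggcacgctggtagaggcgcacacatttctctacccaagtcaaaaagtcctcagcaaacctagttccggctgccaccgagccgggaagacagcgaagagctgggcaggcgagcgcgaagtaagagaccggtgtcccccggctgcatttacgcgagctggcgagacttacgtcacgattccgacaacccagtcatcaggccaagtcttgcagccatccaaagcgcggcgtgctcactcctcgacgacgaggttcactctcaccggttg
The GC box GGGCGG, searched on both strands, was in 18 of the 31 windows (58.1%) against 38.2% of all windows. The CCAAT box, also on both strands, was in 13 (41.9%) against 41.1%. The median log2 difference in mRNA (KO minus WT) was -0.17 over the 5 tested members with the antioxidant response core and -0.02 over the 25 tested members without it.

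The mRNA files hold values that the authors scaled between libraries and rounded, and these scaled values are not counts. They summed to 18069344 to 25820906 per library, with 15640582 to 27110816 reads re-estimated from the scaling step, and the nascent libraries held 5583983 reads (EU, KO), 10833287 (EU, WT), 2317840 (Br, KO) and 3156055 (Br, WT). WT replicate 3 stood apart from the other mRNA libraries: it had 20077 genes above 0 against 24497 to 26247, and it lay at 121.5 on the first principal component (43.9% of the variance) with the others between -46.2 and -6.1. Kmt5a mRNA was 1199, 1040 and 1075 in KO and 593, 615 and 1076 in WT (log2 difference 0.59, SE 0.25, limma adjusted p = 0.244; 0.87 at an adjusted p of 0.0206 without WT replicate 3), and its nascent reads were 310 in KO and 473 in WT by EU and 92 in KO and 104 in WT by Br. These values count the whole gene and do not show the loss of 1 exon, so they do not check the labels, and KO and WT stand for the libraries so labelled. Hepatocyte markers summed to 1921640 to 2076326 in KO and 1904830 to 2935918 in WT over 7 of 8 genes with a row. Alb was the largest part of the sum, with 2021012 in WT replicate 3 against 1070960 and 1072564 in the other WT libraries. Of the 7 genes, 3 were higher and 4 lower in KO, and 0 passed the test. All 12 macrophage markers were higher in KO and 2 of them passed the test (Csf1r and Cd14). All 6 proliferation markers were higher in KO and 3 passed the test.

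None of the proteasome genes passed the test in mRNA. The largest absolute log2 differences were those of the core genes Psma8, Psmb10 and Psmb11, of which Psma8 and Psmb11 had low values. Of the 38 members, 37 were tested. Psmc3ip, which encodes a partner of meiotic recombinases and not a subunit, lay under the floor of 10 in at least 3 libraries, with 13, 8 and 5 in KO and 6, 7 and 10 in WT. At an adjusted p under 0.05 limma called 0 of 37 members, where it called 2.71% of the 16813 genes tested. DESeq2 on re-estimated reads called 1 of 38 members, Psmb10, against 5.47% of the genes it tested. The edgeR fit called 0 of 37, against 2.81%. Without WT replicate 3 limma called 2 of 37 members, Psma5 and Psmb10, against 9.69% of all genes. At an unadjusted p under 0.05 there were 7 members, Psma6 and Psmb2 in the higher direction and Psma3, Psma5, Psma7, Psmb1 and Psmb10 in the lower, against 20.0% of all genes. KO and WT did not overlap for 11 of 37 members, against 26.0% of all genes. Both shares were near the background. Estimates were positive for 14 members and negative for 23, with a median log2 difference of -0.06, and the median over all genes tested was 0.00. In bulk liver, fewer cells of a type and less RNA per cell cannot be told apart.

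The intervals bound how large a difference could be. For 32 of the 37 members (86.5%) the 95% interval lay within 2-fold in either direction, against 39.7% of all genes tested. All 20 tested 19S members and all 7 constitutive beta subunits were among them. The 5 members whose intervals reached past 2-fold were Psma3, Psma5, Psma8, Psmb10 and Psmb11. For Psma3 and Psma5 (SEs of 0.24 and 0.26) the interval was no wider than that of Psmb3 (SE 0.30), which lay within 2-fold, but the estimate was lower. The spread between replicates was small for most of the members. The median SD on the log2 scale was 0.20 in KO and 0.15 in WT. Over all genes tested it was 0.30 in KO and 0.40 in WT. The genes tested reach down to low scaled values, and no comparison matched for level was made. The low members Psma8 and Psmb11 had SEs of 0.53 and 0.61.

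**Figure D1:**
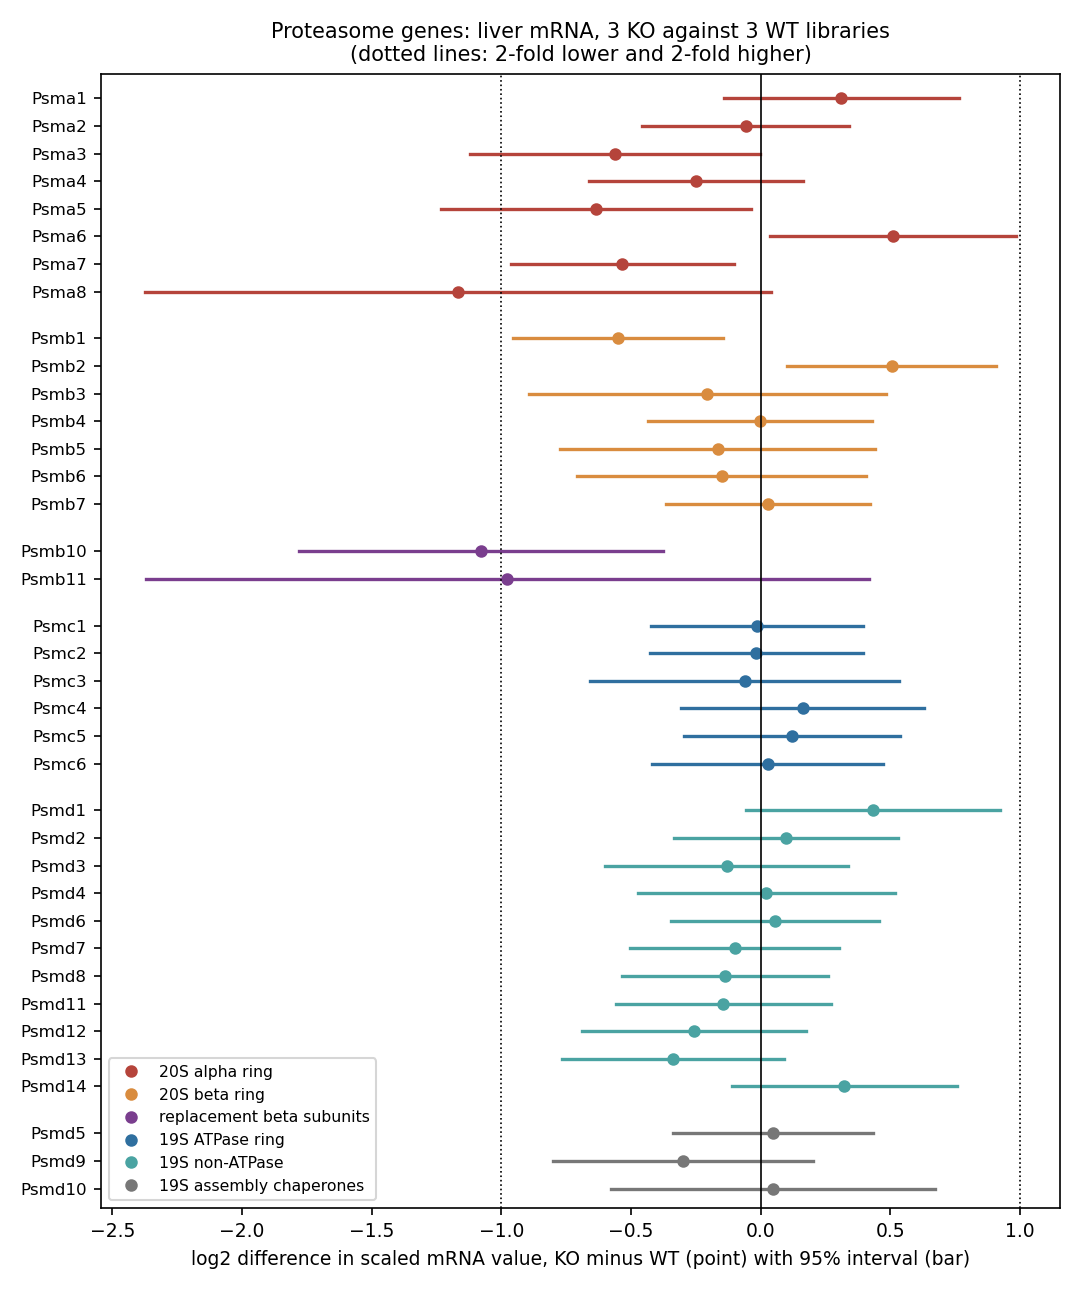
The log2 difference in scaled mRNA value between 3 KO and 3 WT libraries is plotted for the 37 tested members in role order, with points for estimates, bars for 95% intervals from limma and dotted lines at 2-fold. The 6 ATPase genes sit between -0.06 and 0.16, and Psmb10 at -1.08 has an interval from -1.78 to -0.38.

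The alpha ring forms the gate of the core, and its genes did not share a direction. Psma7 had 1543, 1211 and 1117 in KO against 1935, 1765 and 1853 in WT. Every KO library was below every WT library, and the log2 difference was -0.53 (SE 0.19, limma adjusted p = 0.166). Psma5 had 411, 321 and 294 in KO against 618, 632 and 373 in WT. The groups overlapped only through WT replicate 3, which lay beside the KO libraries. Its log2 difference was -0.63 (SE 0.26, adjusted p = 0.224 by limma), and without WT replicate 3 it was -0.88 (adjusted p = 0.0339), in a fit that called 9.69% of all genes. Psma3 had 514, 705 and 685 in KO against 691, 995 and 1160 in WT (log2 difference -0.56, limma adjusted p = 0.249). The highest KO library was just above the lowest WT library. Psma6 went the other way, with 784, 1033 and 1089 in KO against 693, 767 and 573 in WT. All KO libraries were above all WT libraries (log2 difference 0.51, SE 0.21, limma adjusted p = 0.219). Psma4 was also apart, with 1254, 972 and 1215 in KO against 1286, 1368 and 1413 in WT, at a log2 difference of -0.25. Psma1 and Psma2 overlapped between groups, with log2 differences of 0.31 and -0.06. Psma8, the alpha subunit of testis proteasomes, was barely detected, with 13, 8 and 19 in KO against 42, 34 and 18 in WT (log2 difference -1.17, SE 0.53, limma adjusted p = 0.265).

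**Figure D2:**
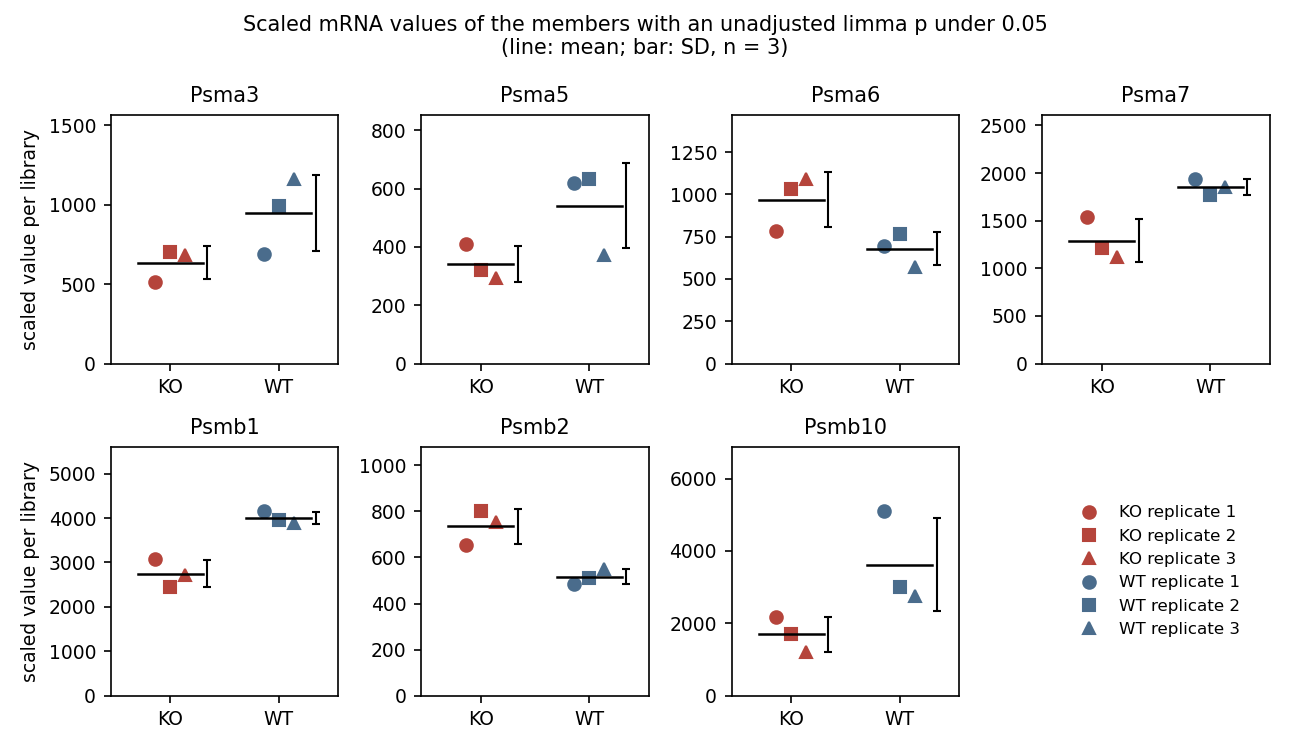
Scaled mRNA values per library are plotted for the 7 members with an unadjusted limma p under 0.05, KO left of WT, with a line at the mean and a bar of 1 SD (n = 3 each). Psma7, Psmb1 and Psmb10 are lower and Psma6 and Psmb2 higher in every KO library than in every WT library, while Psma3 and Psma5 overlap between groups.

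No constitutive beta subunit passed the test, and the estimates farthest from 0, those of Psmb1 and Psmb2, had opposite signs. Both are structural beta subunits without a proteolytic site of their own. Psmb1 had 3067, 2456 and 2709 in KO against 4150, 3951 and 3897 in WT. The groups did not overlap, and the difference was -0.55 on the log2 scale (SE 0.18; adjusted p = 0.138 by limma). Psmb2 had 653, 800 and 753 in KO against 486, 512 and 551 in WT. These groups did not overlap either, and the log2 difference was 0.51 (SE 0.18, limma adjusted p = 0.161). The catalytic subunits overlapped between groups. Psmb5, which carries the chymotrypsin-like site, had 2207, 1227 and 1175 in KO against 1574, 1833 and 1556 in WT, with KO replicate 1 highest and the other KO libraries lowest of the 6. Psmb6, with the caspase-like site, had 2217, 1664 and 1537 in KO against 2453, 2097 and 1505 in WT. Psmb7, with the trypsin-like site, had 2026, 1971 and 2243 in KO against 1848, 2153 and 2115 in WT, a log2 difference of 0.03 with an interval from -0.36 to 0.42. Psmb3 and Psmb4, structural subunits too, had log2 differences of -0.21 and -0.003. Without WT replicate 3 that of Psmb3 was 0.14.

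Psmb10, the inducible subunit that takes the place of Psmb7, had the lowest unadjusted p of the members. It had 2171, 1713 and 1202 in KO (1695 ± 485, SD, n = 3) against 5095, 3013 and 2749 in WT (3619 ± 1285, SD, n = 3). Every KO library lay below every WT library, with WT replicate 1 far above the other WT libraries. The log2 difference was -1.08 (SE 0.31), a fold of 0.473, at an unadjusted p of 0.0075 and an adjusted p of 0.103 by limma. Over the 16 alternative settings the adjusted p ran from 0.0011 to 0.327. It was 0.0395 without WT replicate 3, where 9.69% of all genes were called. Within a library Psmb10 stood at 1.07, 0.869 and 0.536 times Psmb7 in KO and at 2.76, 1.4 and 1.3 times Psmb7 in WT. This ratio, chosen after the values were seen, does not depend on the scaling between libraries. It did not overlap between groups. An exact permutation test over samples gave a two-sided p of 0.1, the smallest that 3 against 3 allows. That p follows from the lack of overlap and adds nothing to it. Psmb8, the inducible subunit outside the rule that replaces Psmb5, had 549, 681 and 346 in KO against 1187, 569 and 517 in WT. Its ratio to Psmb5 overlapped (0.249, 0.555 and 0.294 in KO against 0.754, 0.31 and 0.332 in WT), with an exact permutation two-sided p of 0.5. Macrophages and lymphocytes are among the cell types that express the inducible subunits. The 12 macrophage markers, none of them at 0 in a library, summed to 20020, 23738 and 10768 in KO against 9511, 7903 and 7585 in WT. The 8 lymphocyte markers summed to 228, 276 and 151 in KO against 205, 162 and 113 in WT. Most of them had low values, and Cd4 was the largest part of the sum (56, 102 and 102 in KO against 90, 55 and 47 in WT). The part of these cell types in the Psmb10 result was not tested. Psmb11, the beta subunit of thymus proteasomes, had 29, 27 and 30 in KO against 52, 149 and 24 in WT. WT replicate 2 alone held the high value, and the groups overlapped.

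The 6 ATPase genes of the 19S base, which unfold substrates, were the closest to no difference. Their log2 differences ran from -0.06 to 0.16, none had an unadjusted p under 0.05, and all 6 overlapped between groups. Psmc4 had 2011, 1605 and 1774 in KO against 1485, 1388 and 1984 in WT, the largest difference of the ring at 0.16 (SE 0.20, limma adjusted p = 0.722). Psmc5 had 1610, 1265 and 1265 in KO against 1289, 1327 and 1170 in WT. KO replicate 1 was the highest of the 6 libraries and the other KO libraries lay within the WT range. Psmc1, Psmc2, Psmc3 and Psmc6 had log2 differences of -0.01, -0.02, -0.06 and 0.03.

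Of the 11 non-ATPase subunits of the cap, which hold the ubiquitin receptors and scaffolds, none had an unadjusted p under 0.05, and their log2 differences ran from -0.34 to 0.43. Psmd1, a scaffold of the base, had 1915, 1738 and 1650 in KO against 1411, 1572 and 1004 in WT. All KO libraries were above all WT libraries (log2 difference 0.43, SE 0.21, limma adjusted p = 0.306). The estimate became 0.24 when WT replicate 3, the lowest library, was left out. Psmd13, a lid subunit, had 2055, 1547 and 1536 in KO against 2163, 2167 and 2100 in WT. The WT libraries were close together and all above KO (log2 difference -0.34, SE 0.19, limma adjusted p = 0.363). Psmd14, the deubiquitinase of the lid, had 333, 330 and 348 in KO against 264, 305 and 242 in WT, and Psmd12, a lid subunit, had 875, 899 and 862 in KO against 969, 930 and 1286 in WT. Both pairs of groups were apart, Psmd14 higher and Psmd12 lower in KO. Psmd4, the ubiquitin receptor, had 3910, 2677 and 2709 in KO against 3276, 3148 and 2625 in WT, with overlap. Psmd2, Psmd3, Psmd6, Psmd7, Psmd8 and Psmd11 had log2 differences between -0.14 and 0.10 and overlapped. Among the chaperones that assemble the base, Psmd9 had 1648, 1017 and 1530 in KO against 1663, 1668 and 1721 in WT (log2 difference -0.30, SE 0.22, limma adjusted p = 0.497). KO replicate 2 was the lowest by far, and without it the log2 difference was -0.09. Psmd9 overlaps Hpd, an abundant liver gene on the opposite strand, without shared exons. Exons were shared with another gene in 10 members, among them Psmd13 with Sirt3, Psmb7 with Nek6, Psmc3 with Slc39a13 and Psmd1 with Htr2b. These partners lie on the opposite strand. Sirt3 had 1574, 1648 and 1878 in KO against 2043, 2044 and 1813 in WT. Strand use in the counting was not given in the sources used here, so reads in shared exons cannot be told apart. Whether introns were counted was not given either. Psmd5 had 631, 655 and 617 in KO against 670, 579 and 593 in WT, at a log2 difference of 0.05 (SE 0.17), and Psmd10 had 0.05.

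Set against the cap, the core was slightly lower in KO. The scaled values of the 14 constitutive 20S subunits summed to 0.621, 0.659 and 0.654 times those of the 17 ATPase and non-ATPase 19S subunits in KO and to 0.711, 0.705 and 0.749 times in WT. The groups did not overlap, with means of 0.645 ± 0.0206 in KO and 0.722 ± 0.0239 in WT (SD, n = 3 each), a log2 difference of -0.16. Psmb1 accounted for part of it: without Psmb1 the ratios were 0.526, 0.566 and 0.554 in KO and 0.569, 0.57 and 0.608 in WT, a log2 difference of -0.09, and the groups still did not overlap. The alpha ring alone gave 0.179, 0.221 and 0.222 in KO and 0.223, 0.231 and 0.242 in WT. The beta ring alone gave 0.443, 0.439 and 0.432 in KO and 0.488, 0.474 and 0.507 in WT. These ratios were chosen after the values were seen and are given without a test. The sum over all members was 56591, 47102 and 48332 in KO and 57947, 55632 and 53455 in WT, with KO replicate 1 inside the WT range. KO replicate 1 was the highest KO library for 22 of the 37 members (59.5%), against 38.1% of all genes tested.

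**Figure D3:**
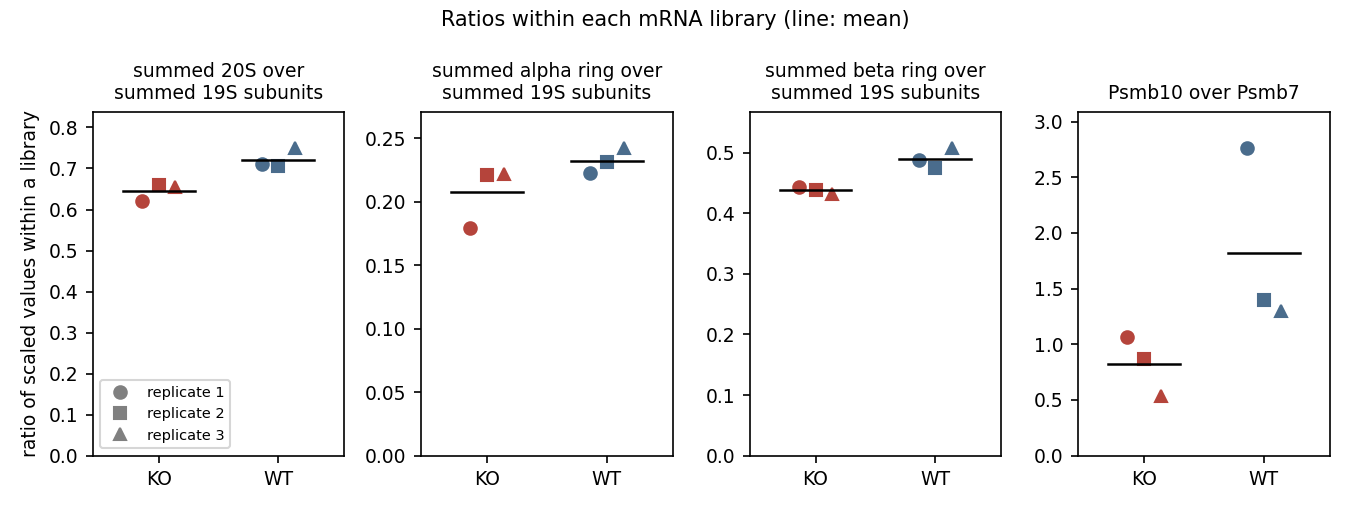
Ratios of scaled values within each mRNA library are plotted for the summed 20S core, the alpha ring and the beta ring over the summed 19S subunits, and for Psmb10 over Psmb7, KO left of WT, with points for libraries and a line at the mean. The core ratio lies between 0.621 and 0.659 in KO and between 0.705 and 0.749 in WT.

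Levels differed far more between subunits than between groups. Divided by the length of the union of exons, the 31 constitutive subunits in KO ran from 120 per kb for Psmd14 to 1709 per kb for Psmb5, a ratio of 14.3. In WT they ran from 95.9 per kb for Psmd14 to 1840 per kb for Psmb5, a ratio of 19.2. In KO 21 of the 31 and in WT 22 of the 31 lay within 2-fold of the group's median. Psmb10 had 994 ± 284 per kb in KO and 2123 ± 754 per kb in WT (SD, n = 3 each). Its WT mean was above that of every constitutive subunit, but it was raised by WT replicate 1. Before division that library had 5095, against 3013 and 2749 in the other WT libraries. The order depends on the length used: with coding length the ratio was 9.56 in KO and the highest gene was Psmb1. By coding length the WT mean of Psmb10 was 4419 per kb, under that of Psmb1 at 5050 per kb.

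**Figure D4:**
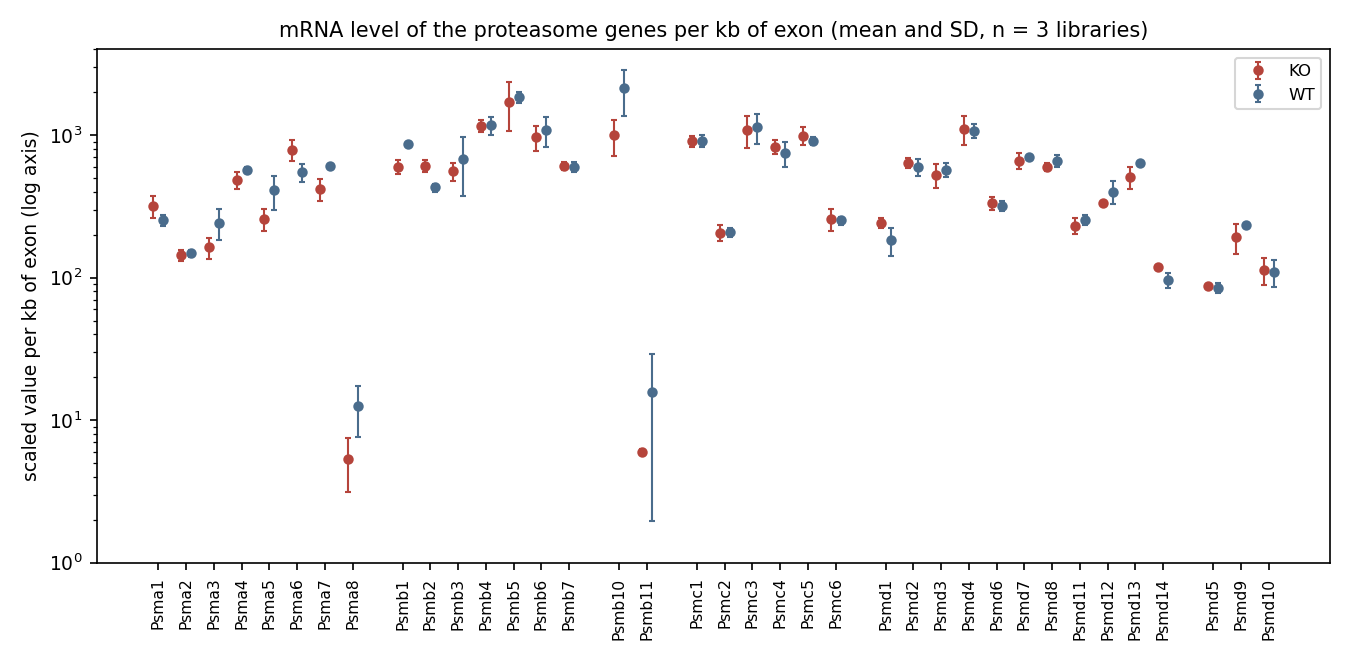
The scaled mRNA value per kb of exon is plotted on a log axis for the 37 tested members, KO left of WT, as the mean with the SD of 3 libraries. Psma8 and Psmb11 lie far under the other members, and Psmb5 is the highest constitutive subunit in both groups.

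Other genes of the pathway, listed by role, had no member called at an adjusted p under 0.05 by limma: 0 of 5 activators and inhibitor, 0 of 6 assembly factors tested, 0 of 12 proteasome-bound enzymes and shuttles, 0 of 11 regulators, 0 of 6 ubiquitin and E1 genes and 0 of 7 class I antigen processing genes. Sem1, the small lid subunit whose symbol falls outside the rule, had 1387, 710 and 684 in KO against 2851, 1746 and 1453 in WT. The groups did not overlap (log2 difference -1.14, SE 0.35, limma adjusted p = 0.121), and the adjusted p was 0.047 when WT replicate 3 was left out. Adrm1, a ubiquitin receptor of the cap, had a log2 difference of 0.26. Pomp, which guides assembly of the core, had 1377, 1293 and 1373 in KO against 1087, 1275 and 772 in WT (log2 difference 0.40, limma adjusted p = 0.359). Nfe2l1 had 3675, 2628 and 2677 in KO against 3081, 3535 and 2877 in WT. Its groups overlapped, at a log2 difference of -0.09. The regulator with the lowest unadjusted p was Maff, a small partner of the Nfe2 factors, at a log2 difference of -0.82 (limma adjusted p = 0.163). Rps27a, which encodes ubiquitin fused to a ribosomal protein, had 2218, 1575 and 2150 in KO against 3044, 3626 and 5076 in WT. Every KO library was below every WT library (log2 difference -0.97, SE 0.25, limma adjusted p = 0.0788). With DESeq2 on re-estimated reads Rps27a was called (adjusted p = 0.0121), and so was Sem1 (adjusted p = 0.0333), in a fit that called 5.47% of all genes. Ubqln2, a shuttle of ubiquitinated proteins, was at 0.71 (limma adjusted p = 0.218, and 0.0451 without WT replicate 3). Psme4, an activator, was at 0.26 (adjusted p = 0.575 by limma), and Nlrc5, a transactivator of class I genes, at -0.66 (limma adjusted p = 0.238). Of the 6 ubiquitin and E1 genes 3 were higher and 3 lower in KO. Ubb, in the direction opposite to Rps27a, had 25496, 21230 and 21934 in KO against 10472, 12486 and 23701 in WT. Its log2 difference was 0.65 (limma adjusted p = 0.302, and 0.0262 without WT replicate 3). Tap2, a class I antigen processing gene, was at -0.57 (limma adjusted p = 0.567, and 0.0279 without WT replicate 3). The fit without WT replicate 3 called 9.69% of all genes.

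In nascent RNA the members' differences were not shared between the 2 methods. The ratio of KO to WT was taken from RPKM plus 0.5 and centred on the median gene, so a log2 ratio of 0 means a ratio like that of the median gene. There was 1 library per genotype and method, so there is no replicate check and no test, and the intervals are exact and cover counting error only. Reads without molecular identifiers are not independent molecules. Psma8 lay under the floor of 1 RPKM, and 37 members were compared with 13494 genes in all. The median log2 ratio over the members was 0.01 by EU and -0.01 by Br. Past 1.5-fold by EU were 9 members higher in KO, against 28.7% of all genes, and 9 lower, against 29.4%. By Br there were 4 higher, against 17.7% of all genes, and 3 lower, against 16.2%. Among the 35 members with at least 20 reads in each pair, 4 were higher and 1 lower by Br. Past 1.5-fold in the same direction by both methods were 0 of 37 members, against 13.1% of all genes compared. The log2 ratios had the same sign in 10 of 37 members (27%), against 54.5% of all genes compared. The EU libraries of KO and WT differed more in depth than the Br libraries, and the part of depth in this was not tested.

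Psma3 had the highest nascent ratio by EU, with 3521 reads in KO against 462 in WT. By Br it had 94 reads in KO against 118 in WT. The log2 ratio was 3.89 by EU and 0.11 by Br, while its mRNA was on the lower side in KO. Psmb5 had 55 EU reads in KO against 14 in WT (log2 ratio 2.87) and 62 Br reads in KO against 59 in WT (0.51). Psmb7 had 193 EU reads in KO against 130 in WT (1.52) and 58 Br reads in KO against 86 in WT (-0.12). These were the highest by the mean of both methods, and the EU value set that mean in each. At the low end, Psma5 had 5 EU reads in KO against 84 in WT, and the Br reads were 29 in KO and 24 in WT. Its log2 ratio was -2.09 by EU and 0.65 by Br. The pseudocount shrinks such low values, and from reads alone the EU interval ran from -4.71 to -1.77. Psmc1 had 25 EU reads in KO against 209 in WT (-1.59) and 59 Br reads in KO against 63 in WT (0.32). Psmc5 had 37 EU reads in KO against 190 in WT (-1.25) and 177 Br reads in KO against 228 in WT (0.08).

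By role, the ATPase ring had a median log2 ratio of -0.64 by EU, with 5 of 6 genes below 0, and of 0.18 by Br, with 5 of 6 above 0. None of its 6 genes had the same sign by both methods. The beta ring had medians of 0.30 by EU and -0.01 by Br, and 1 of its 7 genes had the same sign. The alpha ring had medians of -0.12 by EU and -0.16 by Br, with the same sign in 3 of 7 genes compared. The non-ATPase subunits had medians of 0.01 by EU and -0.07 by Br, with the same sign in 4 of 11. The assembly chaperones had medians of 0.80 by EU and 0.07 by Br, with the same sign in 1 of 3. Among single members, Psmb6 had the highest Br ratio, with 169 reads in KO against 100 in WT (log2 ratio 1.17), and by EU its ratio was -0.88. Psmb10 had 86 EU reads in KO against 156 in WT, a centred log2 ratio of 0.15 with an interval from -0.23 to 0.56. Its Br reads were 202 in KO against 351 in WT, a ratio of -0.34 with an interval from -0.61 to -0.10. The sign of the mRNA difference matched that of EU in 19 of 36 members and that of Br in 18 of 36. Summed over the members, EU reads came to 1680 RPM (reads scaled to the library's total) in KO and 1079 RPM in WT, with 3521 of the 9383 KO reads on Psma3, and Br reads to 1742 RPM in KO and 1693 RPM in WT.

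**Figure D5:**
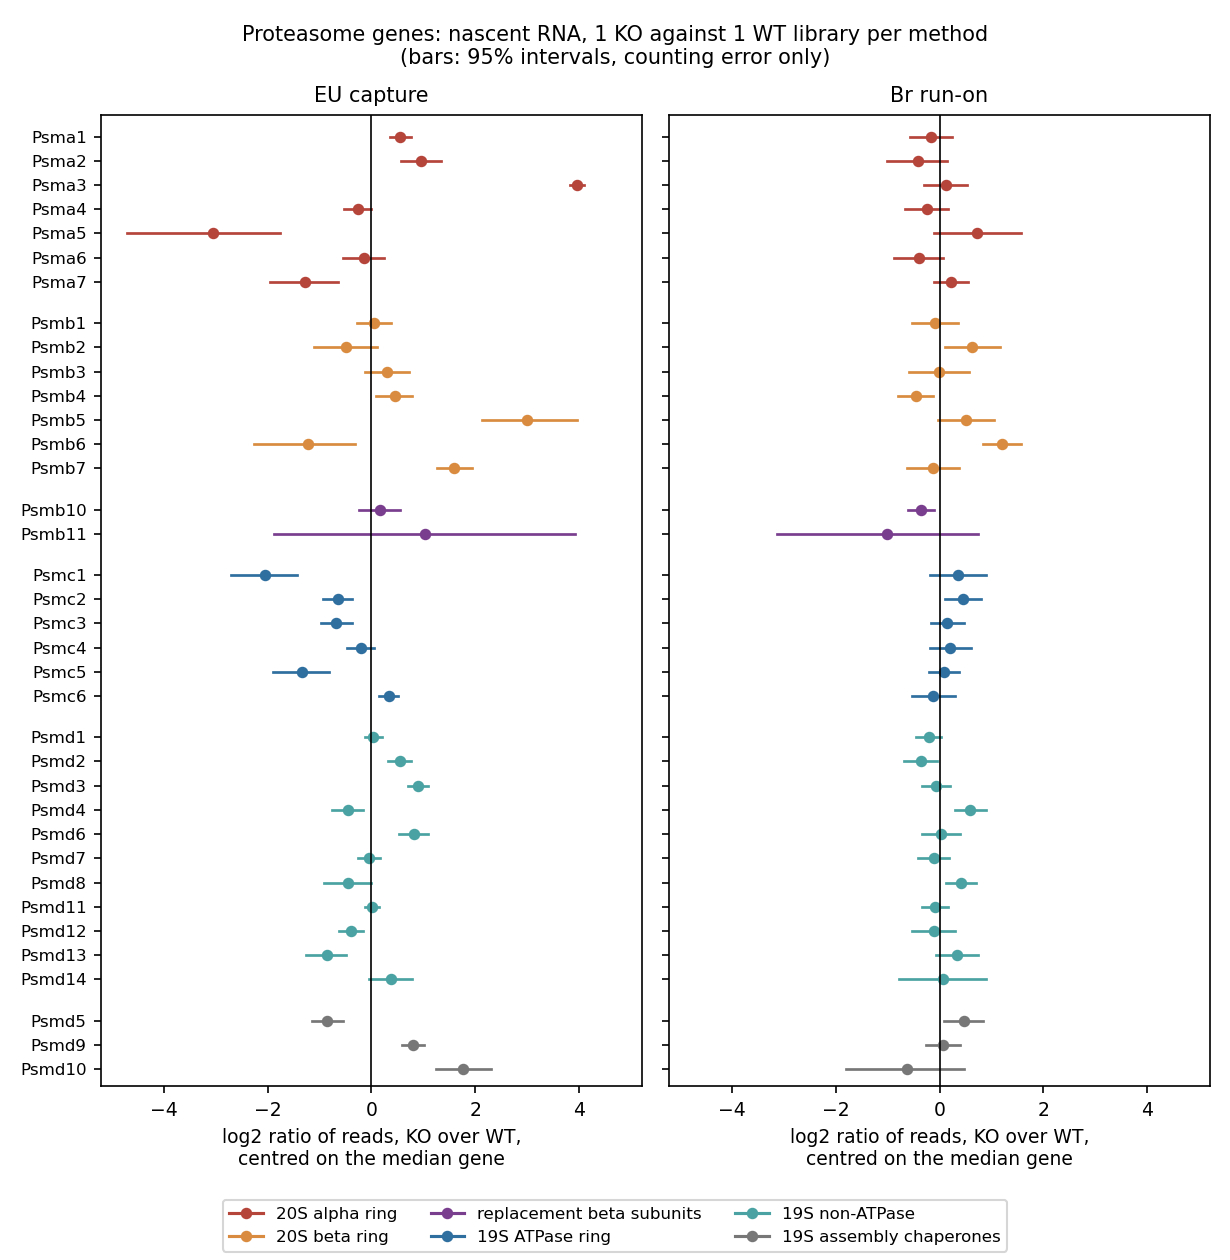
The log2 ratio of reads, KO over WT and centred on the median gene, is plotted for the members by EU (left) and Br (right) in role order, with bars for 95% counting intervals and without a pseudocount. The points spread more widely by EU, with Psma3 at 3.96 and Psma5 at -3.05, than by Br, where Psmb6 at 1.2 and Psmb11 at -1.01 are the farthest from 0. Psmb11 rests on 4 Br reads in KO against 11 in WT, with an interval from -3.12 to 0.74.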

How the data were processed

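Liver mRNA (3 KO, 3 WT libraries) and nascent RNA by EU and Br (1 KO and 1 WT library each) were analysed, and the 24 chromatin and input samples were left out. The mRNA values are a score deposited by the authors: DESeq-scaled reads rounded to whole numbers, as the submitters' processing notes and the values show. The nascent RNA counts were deposited per gene, and all Br counts, being even, were divided by 2. The RPKM values were deposited by the authors, and the lengths they imply differ from gene lengths, so RPKM served only for ratios within a gene and for the floor. The submitters' processing notes name TopHat2, Bowtie2, Cufflinks and the build mm9, with no role. Neither the counter nor its strand setting is given in the sources used here. Symbols, lengths and overlaps came from GENCODE M21 (GRCm38), and promoter sequences from RefSeq (GRCm38.p6). No coordinate was converted.

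Scaled values were tested on log2(value + 1), and log2 differences are on that scale, with limma 3.58.1 in R 4.3.3 (trend and robust), over genes with at least 10 in at least 3 libraries, Benjamini-Hochberg over all 16813 genes, two-sided. Raw counts had been allowed for in the plan, and scaled values were found. The fit was tested on simulated data, where it called 11 of 100 genes changed 2-fold and 63 of 100 genes changed 4-fold, with 4 false calls. The changed genes were drawn at random from all genes but those with low mean values, each with its own spread, and were not limited to the members. A gene that was not called can therefore still differ by 2-fold in general. For the members the intervals are the closer guide, and 32 of 37 lay within 2-fold. The members and gene lists were chosen with earlier results of these data known. With full statistics, the text gives Kmt5a, in each role the 2 members with the largest absolute difference and the one with the smallest unadjusted p, in each other list the gene with the smallest p, and in nascent RNA the 3 highest and 3 lowest members with at least 20 reads in each pair. Other genes named for their values, members or not, were chosen after the values were seen. Psmb9 and Paaf1 had no row. Alternatives were edgeR 4.0.16 and DESeq2 1.42.0 on re-estimated reads, other scalings, filters and pseudocounts, array weights, a replicate block, each library left out and, for nascent RNA, other pseudocounts and floors, no centring and RPM.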

Additional observations from a re-analysis of the deposited data

How the results depend on the processing

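The count of members called by limma (0 of 37) was also 0 with no filter, a filter of 50, pseudocounts of 0.5 and 10, TMM and upper-quartile scaling and edgeR. It was 1 (Psmb10) with DESeq2 on re-estimated reads, where 5.47% of all genes were called. Leaving out 1 library gave 0 to 2, with Psma5 and Psmb10 called without WT replicate 3, where 9.69% of all genes were called. With array weights 16 members were called, 3 higher and 13 lower, where 50% of all genes were called. With a replicate block 1 of 37 members was called (Psmb10, log2 difference -1.08), where 6.03% of all genes were called. The labels do not say whether the numbers pair the libraries. Deviations of same-numbered libraries had correlations of 0.409, -0.242 and 0.198, and those of other pairs ran from -0.395 to 0.27. With 3 libraries a group these values cannot decide it. Over all genes the 455 calls became 1642 with DESeq2, 1014 with the replicate block and 8410 with array weights, and 28 to 1606 with 1 library left out, the highest without WT replicate 3. The cause was not tested. Kmt5a was past the threshold with array weights (log2 difference 0.76) and ranged from 0.44 to 0.87 with 1 library left out, past it without WT replicate 3. In nascent RNA, the 7 members past 1.5-fold by Br became 3 with a pseudocount of 2 RPKM and 4 with a mean RPKM of at least 5. Among the mRNA values of the named genes and the members' median, 326 kept their direction and side of the threshold, 23 passed it, and 1 reversed: Psmc5, with no call under any setting, turned to -0.035 with array weights (0.12 in the reported fit). The EU median over members, 0.01, was -0.01 with a pseudocount of 2 RPKM and -0.06 without centring. Sem1 and Rps27a were called with DESeq2, the replicate block and array weights. Low values limit Psma8, Psmb11 and Psmc3ip in mRNA, Psma5, Psmb5, Psmb6, Psmb11 and Psmc3ip by EU, and Psmb11 and Psmd10 by Br. The use of 1 library per genotype limits all nascent ratios.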
